A study of Mus musculus with 6 samples.

Results

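The genes described here encode the cytosolic translation initiation factors (eIFs) and elongation factors (eEFs) with their direct kinases and binding proteins. They were chosen by name, as every row of the count files whose symbol begins with Eif1 to Eif6 or with Eef1 or Eef2, leaving out the interferon-induced kinase gene Eif2ak2. This gave 65 of 23284 genes. The values are from T cells of C3H/HeJ lymph nodes, an inbred mouse strain that can develop the hair loss disease alopecia areata, and the labels do not say whether these animals had it. The cells were sorted by flow cytometry from 3 separate mice as 2 populations, CD3+CD8+CD44+CXCR3+NKG2D+ and CD3+CD8+CD44+CXCR3+NKG2D-. Both populations thus shared the phenotype of antigen-experienced CD8 T cells and were split by surface NKG2D, the activating receptor that Klrk1 encodes. Age, sex and treatment of the mice are not given in the labels. Each population has 3 libraries, numbered 1 to 3.

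Translation starts when eIF2 brings the initiator methionyl-tRNA to the small ribosomal subunit, where eIF1, eIF1A, eIF3 and eIF5 assemble with it. The eIF4F complex, made of the cap-binding protein eIF4E, the helicase eIF4A and the scaffold eIF4G, recruits this assembly to the mRNA cap. During elongation eEF1A delivers aminoacyl-tRNA, the eEF1B subunits recharge eEF1A with GTP, and eEF2 moves the ribosome along. In T cells the kinases mTORC1 and MNK raise initiation upon stimulation, and phosphorylation of eIF2 alpha lowers it under stress.

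The libraries held 41168816 to 89184611 reads counted in genes, and all values below are CPM (counts scaled to a common library total) with library sizes scaled by the TMM method. The sort marker Klrk1 stood at 409, 312 and 342 CPM in NKG2D+ libraries 1, 2 and 3 and at 34.5, 37.1 and 36.1 CPM in the NKG2D- libraries (log2 fold change 3.30, adjusted p = 0.000185 by edgeR's quasi-likelihood test). The gate genes Cd3e and Cd8a were well expressed in every library, at 403 to 502 CPM and 1135 to 1934 CPM. Markers of other cell types also differed in level between the populations. The log2 fold changes of 14 B-cell markers were all above 0 (median 1.40), 0 of them passed the edgeR test and none was at 0 in any library. DESeq2 called 6 of them higher (all genes tested 7.73%), and 13 lay wholly higher in NKG2D+ libraries (all genes tested 15.1%). Their summed level was 424 to 674 CPM in NKG2D+ and 117 to 313 CPM in NKG2D- libraries. That of 19 myeloid and dendritic cell markers was 456 to 1187 CPM against 151 to 411 CPM. It rested mostly on the MHC class II pathway genes Cd74, H2-Aa, H2-Ab1 and H2-Eb1, which B cells express too. Of its 16 tested genes 12 had a positive and 4 a negative log2 fold change, 0 passed the edgeR test, and 8 lay wholly higher in NKG2D+ libraries (all genes tested 15.1%). DESeq2 called 3 of them higher. These were the dendritic cell genes Xcr1 (9.29 against 2.24 CPM on average) and Itgax (3.66 against 0.914 CPM) and the myeloid gene Lyz2 (7.27 against 3.34 CPM). The 4 negative genes included dendritic cell genes as well. Clec9a stood at 0.119 against 0.347 CPM, wholly lower in NKG2D+ libraries, and Siglech at 0.724 against 1.68 CPM, with overlap. Flt3 stood at 1.06 against 1.12 CPM and Mpeg1 at 5.58 against 7.28 CPM, also with overlap. Cd14, Fcgr1 and S100a8 were not tested and stood at 0.441 CPM or less in every library. Of 17 genes of dividing cells edgeR called 5 higher in NKG2D+ cells (all genes tested 1.65%). DESeq2 called 10 higher (all genes tested 7.73%), and 12 lay wholly higher (all genes tested 15.1%). Mcm2, Mcm5, Pcna, Cdc20 and Tyms overlapped, with log2 fold changes of -0.08, 0.11, 0.03, 0.08 and 0.55. Among the edgeR calls was Mki67, at 85.7 ± 8.68 against 39.5 ± 3.03 CPM (SD, n = 3 each, edgeR adjusted p = 0.0089). With the replicate block Mki67 and Top2a kept the call, Kif11, Aurkb and Cdk1 lost it (adjusted p = 0.0558, 0.0687 and 0.0687), and Rrm2 passed (adjusted p = 0.0364). The endothelial and T-cell gene Pecam1 stood at 49.2 against 68.1 CPM and the collagen gene Col1a1 at 2.47 against 0.921 CPM (edgeR adjusted p = 0.024 and 0.0339), and neither passed with the block (adjusted p = 0.0537 and 0.0806). Other genes passed by DESeq2 and not by edgeR. Foxp3, a regulatory T-cell gene, stood at 4.88 against 17.1 CPM and Zbtb7b at 41.1 against 22.5 CPM. Cd40lg averaged 19.4 against 1.79 CPM. Its NKG2D+ libraries 1, 2 and 3 stood at 47.7, 3.57 and 6.90 CPM, so library 1 set most of its mean. Foxp3, Zbtb7b and Cd40lg come from a list of 4 CD4 T-cell genes. Its other gene, Cd4, passed neither test, at 9.95 against 10.4 CPM with overlap. The gamma-delta T-cell gene Cd163l1 stood at 79.7 against 36.6 CPM. The gate gene Cd44, which DESeq2 called as well, stood at 177 to 430 CPM against 133 to 137 CPM, without overlap. NKG2D+ library 1 had the highest B-cell and myeloid sums. The part of any of these in the results below was not tested, and in sorted bulk RNA fewer cells of a type and less RNA per cell cannot be told apart.

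No initiation or elongation factor gene passed the test between the populations, and most had slightly lower values in NKG2D+ cells. Of the 65 genes, 61 passed the filter on low counts and were tested. By edgeR 0 were called higher and 0 lower at an adjusted p under 0.05, where 1.65% of all 12951 genes tested were called higher and 0.363% lower (2.02% in either direction). With the replicate block 0 were called as well, where 0.44% of all genes tested were called higher and 0.0849% lower, and limma-voom called 0. At an unadjusted p under 0.05 there were 2 higher (all genes tested 12.5%) and 15 lower (all genes tested 8.62%). DESeq2, run beside it, called 2 higher (all genes tested 7.73%) and 8 lower (all genes tested 3.41%). The 2 were Eif4e3 and Eif2c4, and the 8 were Eef1b2, Eef1g, Eif2b3, Eif2s1, Eif3e, Eif3m, Eif4a1 and Eif4a2. All 3 NKG2D+ libraries lay below all 3 NKG2D- libraries for 26 of the 61 genes, which was so for 14.1% of all genes tested. They lay above for 3, against 15.1% of all genes tested.

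The differences were small. Fold changes of 59 of the 61 genes were within 0.5 on the log2 scale, 96.7% of them against 82.5% of all genes tested. Their median log2 fold change was -0.14 (quartiles -0.22 and -0.06), beside -0.01 (quartiles -0.15 and 0.18) over all genes tested. The log2 fold change was negative for 50 and positive for 11, where 47.2% of all genes tested were positive. With library totals alone as the scale, which moved the median of all genes to 0.07, the genes' median was -0.06 and 42 of 61 were negative. Eif4e3 and the Argonaute gene Eif2c4 were the 2 genes that differed by more than 0.5, both with higher values in NKG2D+ cells.

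**Figure D1:**
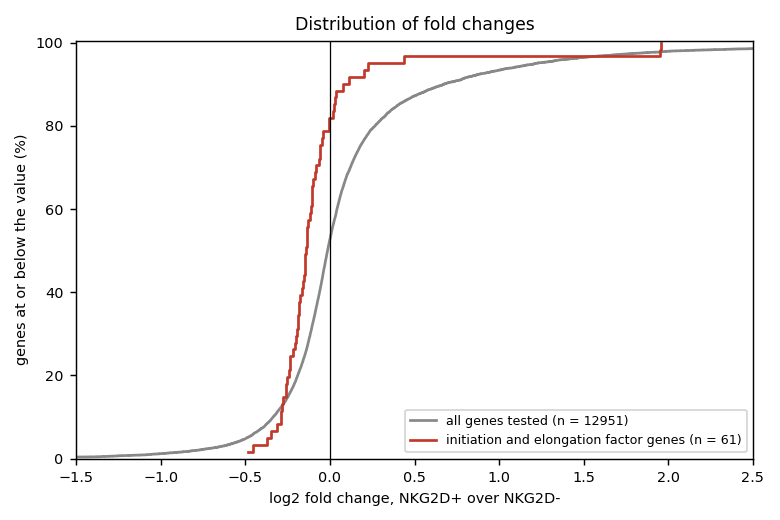
Cumulative share of genes (vertical axis, percent) at or below each log2 fold change of NKG2D+ over NKG2D- cells (horizontal axis), for the 61 initiation and elongation factor genes in red and all 12951 genes tested in grey. The red curve lies to the left of the grey one around 0 and is steeper, and 2 genes lie near 1.95 on the right.

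The promoters of these genes were read for 2 sequence features, since initiation and elongation factor mRNAs are known both as products of MYC target genes and, in part, as TOP mRNAs, whose translation mTORC1 controls through a run of C and T bases at the first transcribed base. RefSeq promoter windows of build GRCm38.p6, from 250 bases before the annotated start to 50 bases from it on, were at hand for 51 of the 65 genes, with 67 windows in all. The counts rest on mm9, so these positions were set against no value by coordinate. The hexamer CACGTG, which is its own reverse complement and is bound by MYC and other factors, was in 14 of 67 windows (20.9%), beside 9.91% of 11656 windows of genes tested and 7.15% of all 32851 windows. The 12 genes with the hexamer had a median log2 fold change of -0.16, and 10 of them were negative. The 36 tested genes without it had a median of -0.13, and 29 were negative. The genes with the hexamer and positive values, Eif4h (0.03) and Eif5a2 (0.22), are not shown. Nor are the hexamers of Eif4e, Eef2k, Eif1b and Eif5a and a further one of Eif4g1. Hexamers with 12 bases on each side are shown for genes of the eIF3, eIF4F and eEF2 steps, all with negative log2 fold changes. These hexamers are in capitals, on the strand of the gene. They lie at chr7:108934335-108934364 (plus strand) for Eif3f, chr7:28981915-28981944 (minus) for Eif3k, chr19:60790654-60790683 (minus) for Eif3a, chr11:69672595-69672624 (minus) for Eif4a1, chr16:20672661-20672690 (plus) for Eif4g1 and chr10:81176576-81176605 (plus) for Eef2.
Eif3f: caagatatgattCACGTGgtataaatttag
Eif3k: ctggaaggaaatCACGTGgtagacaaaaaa
Eif3a: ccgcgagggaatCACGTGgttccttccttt
Eif4a1: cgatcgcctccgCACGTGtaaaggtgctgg
Eif4g1: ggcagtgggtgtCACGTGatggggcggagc
Eef2: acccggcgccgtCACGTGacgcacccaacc

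A run of at least 5 C or T bases that covers the annotated start was in 6 of the 67 windows (8.96%), beside 9.27% of windows of genes tested and 10.1% of all windows, so the share was near the background. The 6 genes had a median log2 fold change of -0.14, the same to 2 decimals as the 42 tested genes without such a run. Bases before the start counted towards the run although they are not part of the mRNA, and the first base could be C or T. The annotated starts were not checked against the starts used in these cells. The split therefore cannot separate TOP mRNAs from others. The 6 genes may include genes without such mRNAs, and the 42 genes may include some with them. Of these starts 5 are shown, with 18 bases before the start and 12 from it on, the run in capitals. They include the most abundant gene, Eef1a1, and the eIF3 subunit genes Eif3f and Eif3l, and all 5 genes had negative log2 fold changes. Not shown is the start of Eif2ak4, with a run of 5 bases and a log2 fold change of 0.08. For Eif3l and Eif2b5 most of the run lies before the start. In each sequence shown the start is the nineteenth base. The positions are chr9:78481713-78481742 (minus) for Eef1a1, chr7:108934397-108934426 (plus) for Eif3f, chr15:79075205-79075234 (plus) for Eif3l, chrX:94212640-94212669 (minus) for Eif2s3x and chr16:20498799-20498828 (plus) for Eif2b5.
Eef1a1: tgtgctggctccgCCCTCTTCCCgagggtg
Eif3f: tcttctgttctaggCTCTCTCTCTTTCTCg
Eif3l: caggcgcggagTTCTTCTTCCgctctctcc
Eif2s3x: cggctgccgagcaTTTTCCTTTTCTCTCCg
Eif2b5: aTTCCTTCCTCTTTCTCTCCCTgcaactac

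The elongation factor genes Eef1a1 and Eef2 had the highest levels of the set per exon length, and the eEF1 genes the most negative median of the role groups. All 5 tested eEF1 genes had a negative log2 fold change under TMM, RLE, upper-quartile and library-total scaling, with a median of -0.37. None passed the edgeR test. Eef1b2, a nucleotide exchange subunit, stood at 798, 1137 and 944 CPM in NKG2D+ libraries 1, 2 and 3 and at 1420, 1323 and 1280 CPM in NKG2D- libraries 1, 2 and 3. Every NKG2D+ library was below every NKG2D- library, and library 2 was the closest. The log2 fold change was -0.48 (SE 0.13, edgeR adjusted p = 0.112), and it was -0.62 without NKG2D+ library 2 (adjusted p = 0.0144). That setting, used for several genes below, left out the library closest to the other population. It called 1312 genes across the table, against 261 with all 6 libraries. Over 17 alternatives the adjusted p of Eef1b2 ran up to 0.669 and was under 0.05 in 2. Eef1g, the scaffold subunit of the exchange complex, stood at 792, 1138 and 938 CPM against 1347, 1287 and 1299 CPM. The populations did not overlap here either (log2 fold change -0.46, SE 0.13, edgeR adjusted p = 0.124, and adjusted p = 0.0133 without NKG2D+ library 2). For Eef1g the adjusted p was under 0.05 in 2 of 17 alternatives and ran up to 0.683. Eef1d, another exchange subunit, stood at 200, 252 and 211 CPM against 273, 260 and 262 CPM. Its values were lower in all 3 same-numbered pairs (log2 fold change -0.26, edgeR adjusted p = 0.186). Eef1e1, which encodes a small protein of the multi-synthetase complex related in sequence to eEF1 subunits, stood at 20.3, 23.7 and 26.1 CPM against 27.7, 30.7 and 32.5 CPM. Here NKG2D+ library 3 was the highest of its population and still below the lowest NKG2D- library (log2 fold change -0.37, SE 0.11, edgeR adjusted p = 0.133).

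Eef1a1, which encodes the tRNA-delivering eEF1A of most tissues, stood at 11633, 16236 and 12734 CPM in NKG2D+ and at 16085, 17415 and 16108 CPM in NKG2D- libraries. NKG2D+ library 2 lay inside the NKG2D- range and libraries 1 and 3 below it. The log2 fold change was -0.29 (SE 0.15, edgeR adjusted p = 0.337), and without NKG2D+ library 2 it was -0.44 (adjusted p = 0.0307). Eef2, the translocase gene, behaved likewise, with 4605, 6674 and 4918 CPM against 6702, 6850 and 6094 CPM. Library 2 again lay inside the range of the other population (log2 fold change -0.28, SE 0.16, edgeR adjusted p = 0.371, and adjusted p = 0.0274 without NKG2D+ library 2). Eef1a1 and Eef2 each passed in this 1 of 17 alternatives only, with adjusted p up to 0.86 and 0.848 in the others. Eef2k, whose kinase product inactivates eEF2, stood at 30.5 to 32.4 CPM against 31.1 to 34.3 CPM, overlapping ranges. Eef1a2, the eEF1A gene of muscle and neurons, had 0 counts in 5 libraries and 2 in NKG2D- library 3, so the delivery factor mRNA counted here was that of Eef1a1. Reads that aligned to several places were set aside before counting, at 19.7% to 21.0% of all counts, unassigned ones included, in NKG2D+ and 21.6% to 26.2% in NKG2D- libraries. Eef1a1 and other highly expressed factor genes have processed pseudogene copies that could hold such reads, and the part of this in the differences was not tested.

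**Figure D2:**
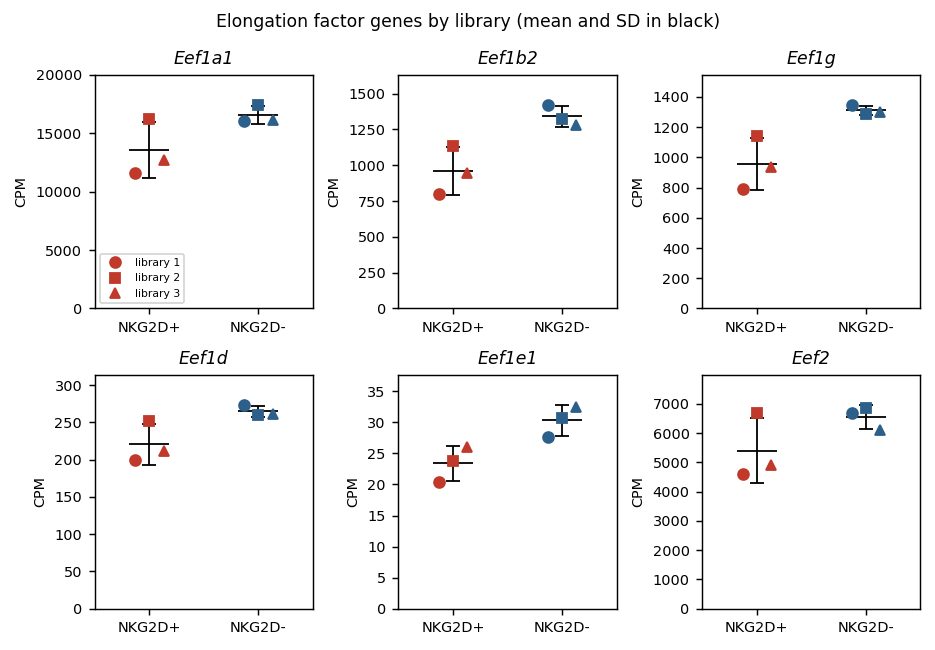
CPM (vertical axes, from 0) of 6 elongation factor genes in NKG2D+ (red) and NKG2D- (blue) libraries, with symbols for library numbers 1 to 3 and the mean ± SD of 3 libraries in black. NKG2D+ library 2, the square, sits highest of its population in 5 of the 6 panels, all but Eef1e1.

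The eIF3 complex, the largest initiation factor and the platform on which the others assemble, showed an even pattern. All 12 tested subunit genes had a negative log2 fold change, from -0.28 for Eif3e to -0.11 for Eif3c with a median of -0.19, and they were also all negative under RLE, upper-quartile and library-total scaling. All NKG2D+ libraries lay below all NKG2D- libraries for 9 of the 12 (all genes tested 14.1%), and 0 passed the edgeR test. The summed subunit level was 2802, 3258 and 2877 CPM in NKG2D+ and 3491, 3441 and 3357 CPM in NKG2D- libraries. Eif3e stood at 309, 362 and 314 CPM against 385, 420 and 392.4 CPM. NKG2D+ library 2 was again the highest of its population but below all NKG2D- libraries (log2 fold change -0.28, SE 0.08, edgeR adjusted p = 0.129, and adjusted p = 0.0356 without NKG2D+ library 2). Eif3m, another subunit gene, stood at 156, 173 and 151 CPM against 188, 194 and 187 CPM (log2 fold change -0.24, SE 0.07, edgeR adjusted p = 0.129, and adjusted p = 0.0469 without NKG2D+ library 2). Eif3e and Eif3m were each under 0.05 in 2 of 17 alternatives, with adjusted p up to 0.708 and 0.7155. Eif3a, the large scaffold subunit, stood at 409, 486 and 501 CPM against 507, 529 and 561 CPM. Its highest NKG2D+ library came close to the lowest NKG2D- library (log2 fold change -0.19, edgeR adjusted p = 0.304). Eif3f, Eif3i and Eif3k were the 3 subunit genes whose ranges overlapped. The thirteenth subunit gene, Eif3j, had 0 counts in all 6 libraries. Mice carry Eif3j1 and Eif3j2, a pair of near-identical copies, and reads that fit both may be counted for neither. Eif3j also overlaps Spg11 in the RefSeq annotation, which stood at 67.4 against 73.7 CPM on average. The cause of the 0 counts was not tested, so no level can be given.

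Genes of eIF2, the carrier of the initiator tRNA, had negative log2 fold changes of like size. Eif2s1, which encodes the alpha subunit that stress kinases phosphorylate, stood at 72.7, 76.7 and 79.2 CPM in NKG2D+ and at 87.0, 90.8 and 96.1 CPM in NKG2D- libraries. The populations did not overlap, and the NKG2D- libraries spread over a range as wide as the gap between the populations (log2 fold change -0.26, SE 0.07, edgeR adjusted p = 0.103). Eif2s2, the beta subunit gene, stood at 83.5, 99.0 and 93.6 CPM against 102, 115 and 120 CPM (log2 fold change -0.29, SE 0.09, edgeR adjusted p = 0.149). The gamma subunit is encoded by the X-linked Eif2s3x and the Y-linked Eif2s3y. Eif2s3x stood at 278, 332 and 313 CPM against 315, 349 and 345 CPM, overlapping ranges, and Eif2s3y had 0 counts in all 6 libraries. In these libraries 3 counts would stand at 0.0335 to 0.0756 CPM. Eif5, whose product triggers GTP hydrolysis by eIF2, stood at 304 to 315 CPM against 338 to 342 CPM, with no overlap (log2 fold change -0.14, edgeR adjusted p = 0.237).

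The start codon scanning factors differed less. Eif1, which guards start codon choice, stood at 474, 423 and 399 CPM against 430, 443 and 427 CPM, with the NKG2D- range inside the NKG2D+ range (log2 fold change -0.0057, SE 0.08). Both this value and that of Eif1ax changed sign under several settings. Of the eIF1A genes, Eif1a stood at 44.6, 49.9 and 51.3 CPM against 49.4, 57.5 and 61.5 CPM, and its relative Eif1ax at 43.2, 37.0 and 39.2 CPM against 41.9, 37.7 and 40.1 CPM. Both overlapped between the populations, and the log2 fold change was -0.21 (SE 0.10) for Eif1a and -0.0037 (SE 0.09) for Eif1ax. These related genes can share reads, so their separate levels are uncertain. Eif5b, which joins the ribosomal subunits, and Eif6, which keeps them apart until then, had log2 fold changes of -0.19 and -0.15.

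The eIF2B complex recharges eIF2 with GTP and is what phosphorylated eIF2 blocks. All 5 subunit genes had negative values, with a median log2 fold change of -0.13, although Eif2b5, the catalytic subunit gene, turned to 0.000576 with library totals alone as the scale. Eif2b3 stood at 14.6, 16.6 and 14.9 CPM in NKG2D+ and at 19.6, 18.5 and 19.2 CPM in NKG2D- libraries, without overlap (log2 fold change -0.31, SE 0.09, edgeR adjusted p = 0.123). Eif2b5 stood at 58.9, 63.9 and 60.6 CPM against 65.3, 62.6 and 66.2 CPM. The kinases that phosphorylate eIF2 alpha did not share this direction. Eif2ak1 (HRI, a heme-regulated kinase) stood at 68.1, 59.9 and 64.5 CPM against 66.3, 60.0 and 61.4 CPM. Eif2ak3 (PERK, of the endoplasmic reticulum) stood at 49.5, 31.5 and 36.3 CPM against 40.3, 29.8 and 32.1 CPM, and was highest in both libraries numbered 1. Eif2ak4 (GCN2, which senses uncharged tRNA) stood at 29.6 to 35.7 CPM against 28.2 to 32.2 CPM. Their log2 fold changes were 0.04, 0.20 and 0.08, the ranges of all 3 overlapped, and 2 of the 3 turned negative without NKG2D+ library 1.

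**Figure D3:**
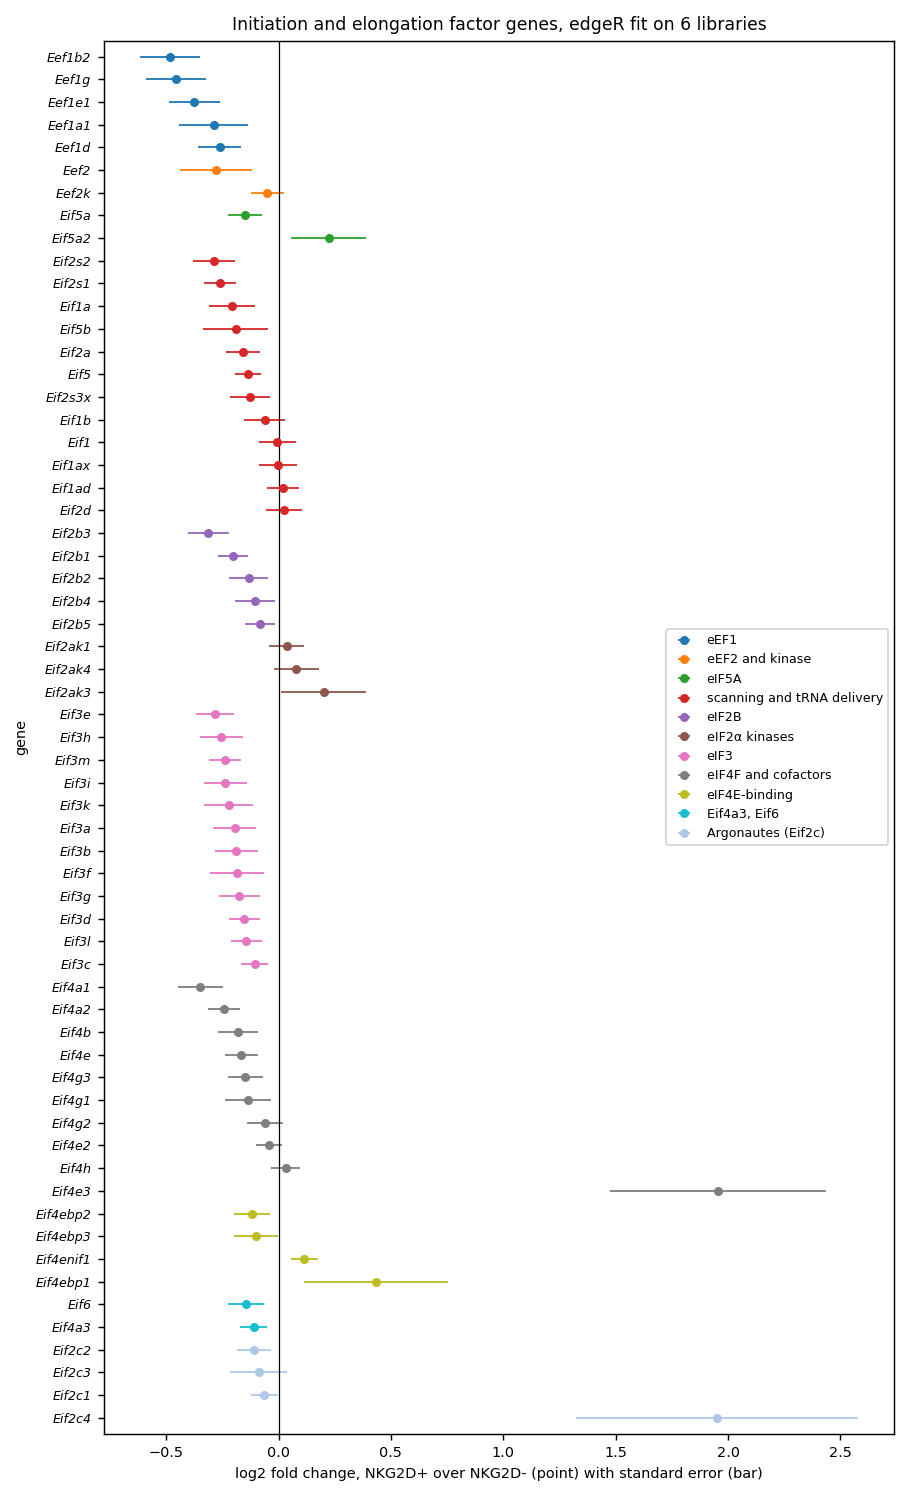
Log2 fold change of NKG2D+ over NKG2D- cells (horizontal axis) with its standard error for each of the 61 tested genes (vertical axis), coloured by role, from the edgeR fit on 6 libraries. All eEF1 and eIF3 points lie left of 0, the 3 eIF2 alpha kinase points lie right of it, and Eif4e3 and Eif2c4 stand far to the right with wide bars.

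The cap-binding group held the smallest p of the whole set. Eif4e3, which encodes a cap-binding relative of eIF4E, stood at 83.5, 21.1 and 34.7 CPM in NKG2D+ libraries 1, 2 and 3 and at 10.7, 13.3 and 11.9 CPM in the NKG2D- libraries. All NKG2D+ libraries were above all NKG2D- libraries, but they differed among themselves by more than the gap between the populations, with library 1 far above libraries 2 and 3. The log2 fold change was 1.96 (SE 0.48, edgeR adjusted p = 0.0897, and adjusted p = 0.141 with the replicate block). Without NKG2D+ library 1 it was 1.22 (adjusted p = 0.0266), and without library 2 it was 2.30 (adjusted p = 0.0195). Over 17 alternatives the adjusted p ran from 0.0142 to 0.611 and was under 0.05 in 3. NKG2D+ library 1 was also the library with the highest summed B-cell markers, at 674 CPM against 424 and 474 CPM in libraries 2 and 3, and the part of this in the level of Eif4e3 was not tested. In NKG2D- libraries 1, 2 and 3 the B-cell sum was 117, 313 and 258 CPM.

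Eif4e, the main cap-binding gene, stood at 61.6, 55.6 and 61.3 CPM against 65.9, 64.5 and 69.7 CPM. These values did not overlap (log2 fold change -0.16, SE 0.07, edgeR adjusted p = 0.254). Eif4e2, whose product binds caps without recruiting the scaffold and mostly represses, stood at 84.8, 86.1 and 83.8 CPM against 88.3, 84.9 and 89.1 CPM (log2 fold change -0.04, SE 0.06). Divided by exon length, Eif4e3 made up 41.1% ± 16.0 of the summed CPM per kilobase of these 3 genes among NKG2D+ libraries, against 16.1% ± 1.78 in the others (SD, n = 3 each), and Eif4e 29.7% ± 7.41 against 44.2% ± 1.00.

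Of the helicase genes, Eif4a1 stood at 414, 529 and 499 CPM in NKG2D+ and at 612, 595 and 628 CPM in NKG2D- libraries. Every NKG2D+ library was below every NKG2D- library (log2 fold change -0.35, SE 0.10, edgeR adjusted p = 0.124, and adjusted p = 0.0443 without NKG2D+ library 2). For Eif4a1 the adjusted p was under 0.05 in 2 of 17 alternatives and ran up to 0.673. Its close relative Eif4a2 stood at 678, 693 and 694 CPM against 769, 833 and 843 CPM, also without overlap (log2 fold change -0.24, SE 0.07, edgeR adjusted p = 0.124). The share of Eif4a1 in their summed CPM per kilobase was 55.6% ± 2.86 and 57.5% ± 1.33 (SD, n = 3 each), with overlapping values. Eif4a3, a relative that works in the exon junction complex of spliced mRNA, stood at 92.9 to 100.6 CPM against 104 to 106 CPM (log2 fold change -0.11). The scaffold genes differed little. Eif4g1 stood at 449, 569 and 558 CPM against 568, 571 and 594 CPM. Eif4g2, which encodes a scaffold that does not bind eIF4E, stood at 1177, 1050 and 1108 CPM against 1184, 1105 and 1190 CPM. Eif4g3 stood at 220 to 258 CPM against 268 to 272 CPM and was the one scaffold gene without overlap. Their log2 fold changes were -0.14, -0.06 and -0.15. Eif4b and Eif4h, cofactors of the helicase, had values of -0.18 and 0.03. The oocyte form Eif4e1b had 1 count in NKG2D+ library 1, 1 in NKG2D- library 1 and 0 in the others.

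**Figure D4:**
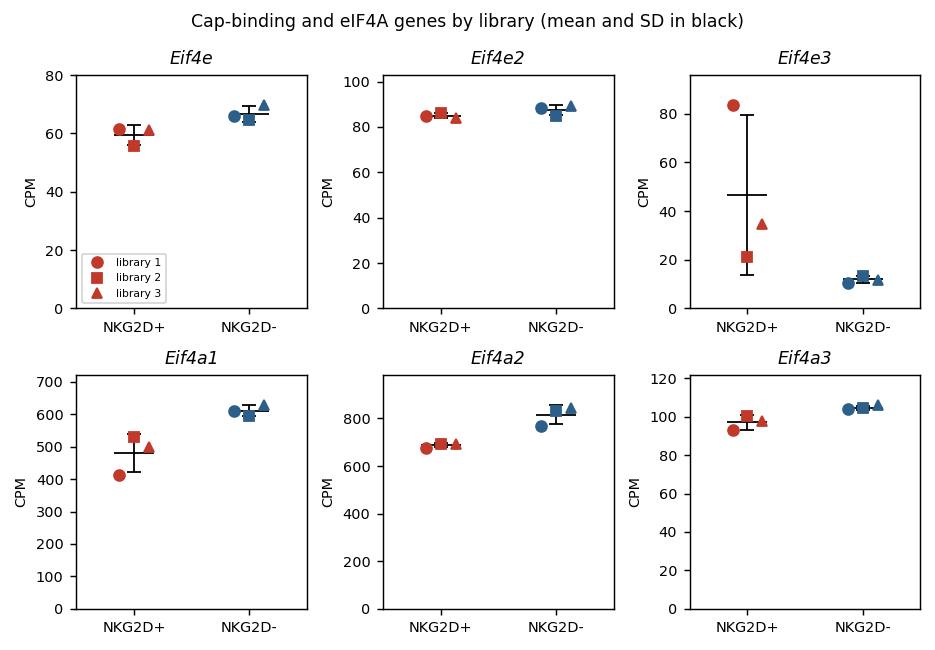
CPM (vertical axes, from 0) of cap-binding genes (top row) and eIF4A genes (bottom row) in NKG2D+ (red) and NKG2D- (blue) libraries, with symbols for library numbers 1 to 3 and the mean ± SD of 3 libraries in black. Eif4e3 ranges from 21.1 to 83.5 CPM in NKG2D+ cells and from 10.7 to 13.3 CPM in NKG2D- cells, while Eif4a1 and Eif4a2 are lower in all NKG2D+ libraries.

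The eIF4E-binding proteins hold eIF4E off its scaffold until mTORC1 phosphorylates them. Eif4ebp2 stood at 126, 152 and 136 CPM against 148, 154 and 147 CPM. Eif4ebp1 stood at 10.2, 4.3 and 5.0 CPM against 4.7, 4.8 and 4.9 CPM. The high value of NKG2D+ library 1 alone set its log2 fold change of 0.44 (SE 0.32), which was -0.04 without that library. Eif4ebp3 stood at 11.6 to 12.8 CPM against 12.6 to 13.9 CPM. Eif4enif1, which encodes the eIF4E transporter, was above the NKG2D- range in all NKG2D+ libraries, at 88.1 to 92.2 CPM against 81.2 to 84.7 CPM (log2 fold change 0.11, edgeR adjusted p = 0.326). It overlaps Sfi1 in the RefSeq annotation, which stood at 124 against 90.0 CPM on average, and the strand setting of the counts is not known.

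Eif5a encodes the factor that carries hypusine, a modified lysine, and helps ribosomes past difficult peptide bonds. It stood at 388, 442 and 394 CPM in NKG2D+ and at 453, 463 and 442 CPM in NKG2D- libraries, which met at their edges (log2 fold change -0.15, SE 0.08, edgeR adjusted p = 0.317). Eif5a2 stood at 19.1 to 20.5 CPM against 12.7 to 20.4 CPM. The Eif5a share of their summed CPM per kilobase was 97.8% ± 0.208 and 98.3% ± 0.374 (SD, n = 3 each).

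Under older symbols 4 Argonaute genes also match the naming rule, Eif2c1 to Eif2c4, now Ago1 to Ago4. Their products bind small RNAs and are not initiation factors. Eif2c2 (Ago2), the slicing member of the family, stood at 134, 152 and 156 CPM against 159, 154 and 162 CPM. Eif2c4 (Ago4) stood at 2.77, 0.648 and 1.20 CPM in NKG2D+ and at 0.176, 0.575 and 0.405 CPM in NKG2D- libraries. NKG2D+ library 1 was far above the rest, and library 2 was close to the highest NKG2D- library. The log2 fold change of 1.95 (SE 0.63, edgeR adjusted p = 0.146) was 1.22 without NKG2D+ library 1 (adjusted p = 0.218) and 2.32 without library 2 (adjusted p = 0.0409).

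Levels between genes were compared as CPM per kilobase of exon, with GENCODE lengths on GRCm38 that need not match the annotation of the counts. In NKG2D- cells Eef1a1 stood at 9217 ± 425, Eef2 at 2120 ± 130, Eef1g at 703 ± 16.9 and Eef1b2 at 692 ± 37.0 CPM per kilobase (SD, n = 3). The neighbours Eef1g and Eef1b2 did not differ beyond their spread. The highest initiation factor genes followed, Eif3h at 362 ± 21.6 and Eif4a1 at 345 ± 9.27, which overlapped within their spread, then Eif1 at 328 ± 6.15. The cap-binding gene Eif4e stood far lower, at 13.01 ± 0.527. Within the eIF3 complex, subunit genes ran from Eif3h down to Eif3l at 81.7 ± 3.85 CPM per kilobase.

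Much of the spread came from 1 population. The median coefficient of variation of the 61 genes was 7.93% over the NKG2D+ and 4.73% over the NKG2D- libraries. NKG2D+ library 2 was the highest of its population for 35 of 61 genes, and library 1 the lowest for 29. All 65 genes together summed to 27826, 35988 and 29755 CPM in NKG2D+ libraries 1, 2 and 3, and to 37072, 38328 and 36284 CPM in the NKG2D- libraries, sums dominated by Eef1a1 and Eef2. Same-numbered libraries deviated together from their population means over all genes, and were taken as pairs. Within the pairs 43 of 61 genes were lower in all 3, against 29.1% of all genes tested, and 5 were higher in all 3, against 25.9%. The median log2 ratio of the 61 genes was -0.22 in pair 1, -0.06 in pair 2 and -0.14 in pair 3, beside -0.03, -0.0013 and -0.02 over all genes tested. For eIF3 these medians were -0.31, -0.05 and -0.185, and for eEF1 -0.47, -0.18 and -0.34, so pair 2 showed the smallest difference in both.

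**Figure D5:**
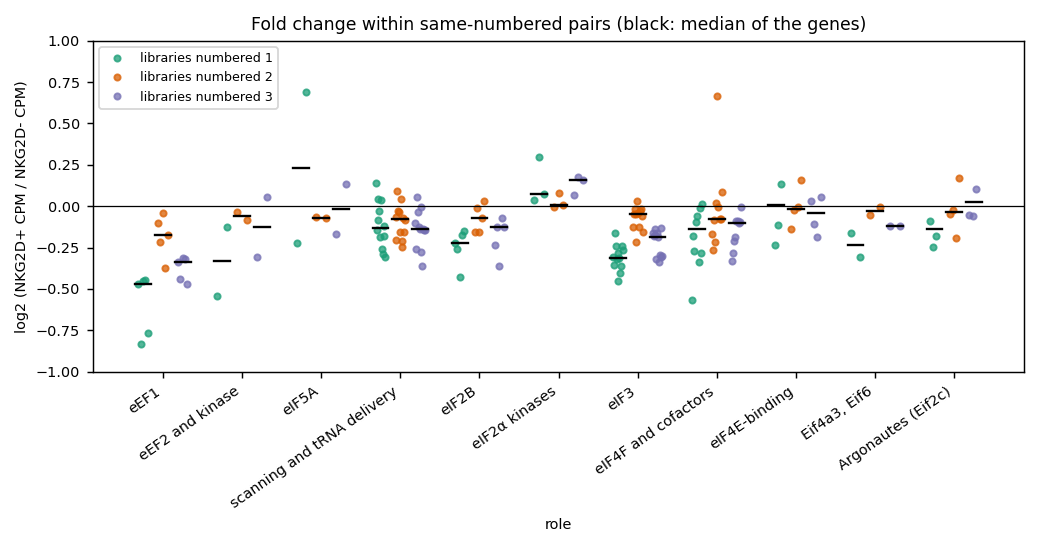
Log2 ratio of NKG2D+ to NKG2D- CPM (vertical axis) within the libraries numbered 1, 2 and 3 for each tested gene, by role (horizontal axis), with the median of the genes in black. Medians of eEF1 and eIF3 lie below 0 in every pair and closest to 0 in pair 2, and 5 points of Eif4e3, Eif2c4 and Eif4ebp1 lie above the axis and are not drawn.

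Lists of other genes of translation were set beside these. None of their genes passed the edgeR test, with 0 of 25 for mTORC1 and MNK control, 0 of 13 for targets of the integrated stress response, 0 of 5 for poly(A)-binding proteins, 0 of 9 for termination and recycling, 0 of 9 for mitochondrial translation, 0 of 7 for hypusine and diphthamide enzymes and 0 of 21 for aminoacyl-tRNA synthetases. The synthetase list also holds the scaffold genes Aimp1 and Aimp2, which encode no synthetase. At an unadjusted p under 0.05 the shares of all genes tested were 8.62% lower and 12.5% higher. On the lower side were 8 genes of the synthetase list, among them Aimp1 and Aimp2, and 4 termination genes. Also lower were 3 stress response genes, among them the synthetase gene Nars, 2 hypusine and diphthamide genes and 1 mTORC1 gene. On the higher side were 2 termination genes and 1 mTORC1 gene. DESeq2 (all genes tested 3.41% lower and 7.73% higher) called 3 synthetase genes (Dars, Farsb and Cars), 2 termination genes (Abce1 and Hbs1l), Rps6 and Asns lower, and the termination genes Pelo and Gspt2 higher. The synthetase list, most of whose genes encode enzymes that charge tRNAs, had mostly negative values, as the factors did. Of its 21 genes 20 had a negative log2 fold change, the median was -0.21 and 11 lay wholly lower in NKG2D+ libraries (all genes tested 14.1%). Dars, the aspartyl-tRNA synthetase gene, stood at 94.3, 104 and 103 CPM against 121, 123 and 129 CPM (log2 fold change -0.30, edgeR adjusted p = 0.0746). Among stress response targets 6 were positive and 7 negative, with a median of -0.01. Asns, the asparagine synthetase gene that ATF4 activates, stood at 11.4, 11.8 and 13.1 CPM against 15.7, 18.3 and 21.7 CPM, with no overlap (log2 fold change -0.62, SE 0.14, edgeR adjusted p = 0.0735).

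In the mTORC1 list 9 genes were positive and 16 negative, with a median of -0.06. Rps6, the ribosomal protein that S6 kinase phosphorylates, stood at 1894, 2631 and 2068 CPM against 3155, 3034 and 2822 CPM. As for Eef1b2, Eef1g and Eef1d, library 2 was the NKG2D+ library nearest to the other population (log2 fold change -0.45, SE 0.14, edgeR adjusted p = 0.131). Pabpc4, a poly(A)-binding protein gene, Tufm, the mitochondrial elongation factor gene, and Dph5, an enzyme gene of diphthamide synthesis on eEF2, had the smallest p of their lists. They stood at 53.9 ± 10.1 against 63.7 ± 0.00721, 82.4 ± 2.91 against 92.3 ± 9.35 and 24.7 ± 7.99 against 37.7 ± 3.89 CPM (SD, n = 3 each, edgeR adjusted p = 0.354, 0.34 and 0.199). Pelo, a ribosome rescue factor gene, stood on the other side, at 28.7, 23.3 and 22.8 CPM in NKG2D+ and 14.1, 15.7 and 17.1 CPM in NKG2D- libraries (log2 fold change 0.67, SE 0.13, edgeR adjusted p = 0.05005). Pelo lies within the integrin gene Itga1 in the RefSeq annotation. Itga1 rose from 9.21 to 184 CPM in NKG2D+ cells (log2 fold change 4.32, edgeR adjusted p = 0.0153), and without a known strand setting reads of Pelo and Itga1 cannot be told apart.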

How the data were processed

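Total RNA of sorted cells was sequenced from TruSeq libraries. The authors deposited raw read counts per gene for each library, after base calling with CASAVA 1.8.2 and alignment with TopHat2 2.0.4 to mm9, per the submitters' processing notes. Neither labels nor files name the counting program, annotation or strand setting. The 5 summary rows per file (reads without a gene at 14.0% to 15.9%, ambiguous at 0.715% to 0.836%, aligned to several places at 19.7% to 26.2% of all counts) entered neither library sizes nor tests.

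Counts of 23284 genes in 6 libraries were filtered with filterByExpr (minimum count 10, minimum total 15) and tested with edgeR 4.0.16 in R 4.3.3, by a quasi-likelihood F-test with TMM factors, population as the only term and Benjamini-Hochberg adjustment over 12951 genes, at a threshold of 0.05. Standard errors are the absolute log2 fold change over the square root of F. The procedure was tested on simulated data. Alternatives were a replicate block, DESeq2 1.42.0, limma-voom (limma 3.58.1), RLE and upper-quartile scaling, other filters, leaving out each library or same-numbered pair, and, added after seeing the data, library totals alone.

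The series text names separate mice but does not tie library numbers to mice. Deviations from the population means correlated at 0.252, 0.196 and 0.38 between same-numbered libraries and at -0.214 to 0.0238 between others (log2 CPM with a pseudocount of 0.5), so the numbers were taken as pairs. An exact permutation test of 3 against 3 libraries cannot go below p = 0.1, the value for Klrk1.

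Genes named are the 12 with the smallest p, the highest by CPM in each role group, related pairs and trios, and the gene with the smallest p in each pathway list. Others named (such as Eif4enif1, Eif2ak3, Eif2ak4, Eif3c, Eef2k and the single marker genes) were chosen after their values were seen. The members and lists were chosen with earlier results of these data known.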

Additional observations from a re-analysis of the deposited data

How the results depend on the processing

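The median log2 fold change of the initiation and elongation factor genes was negative in every setting run, from -0.18 without NKG2D+ library 2 to -0.06 with library totals alone. The number of these genes called higher was 0 by edgeR and limma-voom, 2 by DESeq2 and 0 to 2 when 1 library was left out. The number called lower was 0 by edgeR and limma-voom, 8 by DESeq2 and 0 to 9 when 1 library was left out, with the 9 and the 2 both without NKG2D+ library 2, where 3.1% and 6.86% of all genes were called. The replicate block on the paired libraries called 0 of them and changed no call of a named initiation or elongation factor gene. Among all genes tested, 261 were called, against 68 with the replicate block, 1442 by DESeq2, 83 by limma-voom, 8 to 1312 with 1 library left out and 0 with both libraries numbered 3 left out. That last setting gave Klrk1 a log2 fold change of 3.33 (edgeR adjusted p = 0.105). The last 2 settings also had fewer libraries, and the cause of these shifts was not tested.

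Some values near 0 reversed. With library totals alone the log2 fold change was 0.000576 for Eif2b5, 0.0228 for Eif4g2, 0.0409 for Eif4e2, 0.0766 for Eif1 and 0.0809 for Eif1ax. For Eif1 it was 0.00637 under the stricter filter, 0.00981 to 0.0514 without NKG2D+ library 2 or 3, 0.00666 without NKG2D- library 2, and 0.0329 and 0.0386 without both libraries numbered 2 or 3. For Eif1ax it was 0.00109 by DESeq2, 0.00107 with RLE, 0.00865 under the stricter filter, 0.0473 and 0.0102 without NKG2D+ library 2 or 3, 0.0291 without NKG2D- library 1, and 0.0155 and 0.0113 without both libraries numbered 2 or 3. Without NKG2D+ library 1, Eif4ebp1 stood at -0.0372 and Eif2ak1 at -0.0074, and without both libraries numbered 1 Eif4ebp1 stood at -0.0508. Over all settings that left out 1 library, the values ran from -0.0764 to 0.0514 for Eif1, from -0.0654 to 0.0473 for Eif1ax, from -0.0372 to 0.658 for Eif4ebp1 and from -0.0074 to 0.084 for Eif2ak1. The cause was not tested. Depth limits Eif2c4, with 7 to 182 counts per library, and the 4 genes that were not tested.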
